A study of Mus musculus with 12 samples.

Results

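The Prss and Tmprss genes encode serine proteases, most of them built on the fold of trypsin. Their transcripts were followed here in testes taken whole from Topaz1-/- mice (KO) and from wild types (WT). The family was taken as every gene whose symbol on the array, or whose current symbol, starts with Prss or Tmprss followed by a digit. This gave 50 genes, 33 of them Prss and 17 Tmprss, among 19057 genes with a named probe. The 50 genes had 70 probes, and where a gene had several, the one with the highest mean over the 12 arrays stands for it. The reference annotation holds 6 further members without a named probe on the array, Prss1, Prss33, Prss36, Prss47, Prss51 and Prss57, which were not analysed here.

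The 4 groups were WT at 15 days after birth (WT P15), KO at 15 days (KO P15), WT at 20 days (WT P20) and KO at 20 days (KO P20), all on the C57Bl/6N strain. There were 3 samples per group, biological repeats by the labels, with 1 Illumina bead array per sample and 12 arrays in all. The labels name no Cre driver for the KO. No probe carried the name Topaz1 in the annotation used here, so the genotype labels were not checked against that transcript.

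Trypsin-like proteases are made as inactive precursors and cut their targets with a catalytic triad of histidine, aspartate and serine. In the testis many of them appear with meiosis and with formation of the acrosome, the secretory cap of the sperm head whose enzymes act around fertilisation. Others stay on the cell surface through a lipid anchor or, in the Tmprss branch, through a membrane-spanning segment. In mice, loss of Prss37, Prss55 or Tmprss12 impairs the fertility of sperm, and experiments on testis explants have tied Prss42 and Prss43 to the progress of meiosis.

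A level below is the log2 of the quantile-normalized intensity plus 50 on 1 array, and a change is a difference of group means on that log2 scale. Background lay at a level of 7.53 on every array, because it was set after quantile normalization, which gives all arrays the same distribution. Levels of different genes are not set against each other because probes differ in brightness. The unnormalized arrays had median intensities of 128.2 to 143.4. The arrays within a group correlated at a Spearman coefficient of 0.897 to 0.923, and the first principal component, with 81.2% of the variance, separated the ages. Among the marker lists, the summed intensity of 10 Sertoli cell genes was 66513 to 76229 in KO P20 and 81198 to 85518 in WT P20, and that of 10 spermatogonial genes was 5622 to 5959 against 6484 to 7270. The 12 spermatocyte genes summed to 92254 to 95362 in KO P20 and to 77494 to 87043 in WT P20, and the 14 round spermatid genes to 9362 to 10972 and 7452 to 11534. The median level over those 14 genes was 7.57 to 7.62 on the KO P20 arrays and 7.61, 7.85 and 8.06 on the WT P20 arrays. Their median change with age was 0.27 in WT and 0.03 in KO. Between genotypes at P20 limma called 0 of the 14, against 1.04% of all probes. Of the 14, 5 had an unadjusted p under 0.05, against 5412 of the 45281 probes. Between genotypes at P20 limma called 1 of 10 Sertoli cell genes lower, 1 of 12 spermatocyte genes higher and 0 of 10 spermatogonial genes. Over all probes 0.311% were lower and 0.731% higher. The median level over the 12 spermatocyte genes was 10.49 to 11.03 on the KO P20 arrays and 10.40 to 11.17 on the WT P20 arrays. Whether such differences come from cell makeup, and their part in the results below, was not tested. In RNA of a whole testis, fewer cells of a type and less RNA per cell cannot be told apart.

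The comparison of genotypes asks what the loss of Topaz1, named by the study as a germ cell factor of male meiosis, does to these transcripts. At P20 a single member passed the test: Prss50, which was lower in KO (1.42-fold). No member was higher by the test. At P15 no member differed by the test. With age the family changed far more, led by the acrosomal and testis proteases Prss21 and Prss39. Between P15 and P20 in WT 15 members passed (13 rose and 2 fell), against 20.1% of all probes in either direction. Of all named genes, each by its brightest probe, 11.2% rose and 16.5% fell.

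In the limma fit over all 45281 probes, with Benjamini-Hochberg adjusted p under 0.05 as the threshold, 1 of the 50 members was lower in KO at P20 and 0 were higher. Over all probes 0.311% were lower and 0.731% higher, 1.04% in either direction. Over the 19057 named genes, each by its brightest probe, 0.409% were lower and 1% higher. The median change of the members at P20 was 0.02, against 6.18e-05 over all probes. Of the 50 members 5 had an unadjusted p under 0.05, as had 5412 of the 45281 probes. At P15 the limma fit called 0 of 50 members, against 0.00442% of probes in either direction. There 1 member, Tmprss13, had an unadjusted p under 0.05, against 3436 of the 45281 probes. Its adjusted p was 0.596, the lowest of the members. For the difference between the genotype effects at the 2 ages, 4 of 50 members had an unadjusted p under 0.05, against 3202 of the 45281 probes. The test of this difference called 0 of 50 members, against 0.0552% of probes (0.0353% higher and 0.0199% lower). Its lowest adjusted p among the members was 0.0984, that of Prss50. The p-values set a difference of group means against the spread between the samples of a group, estimated over all 4 groups together.

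**Figure D1:**
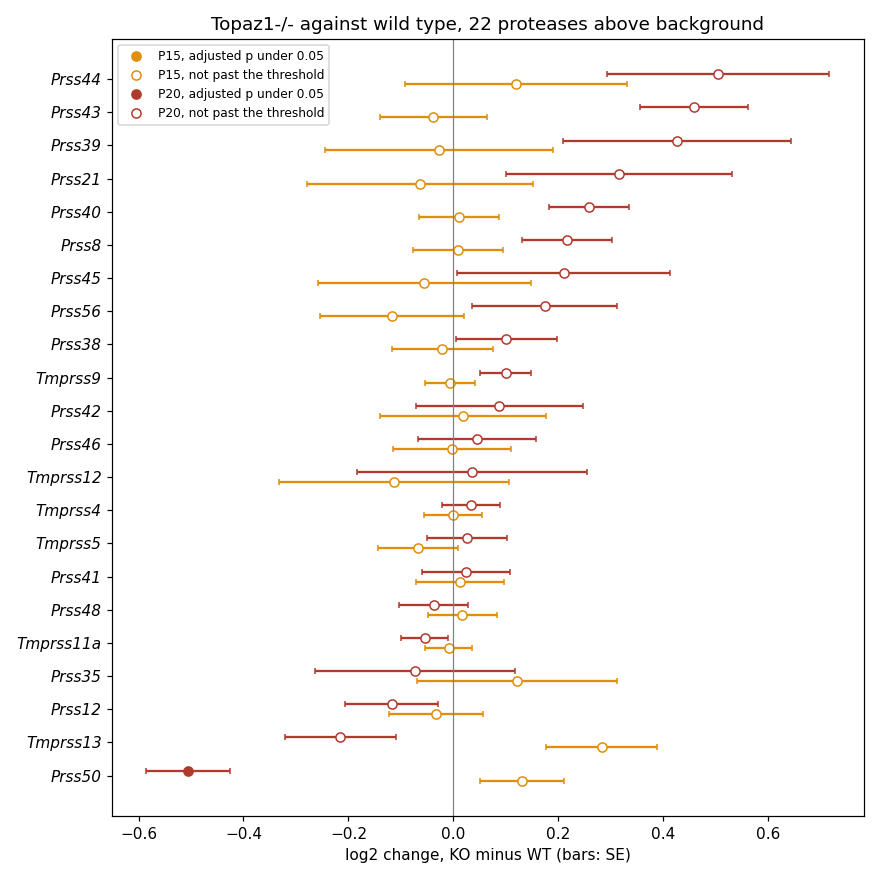
Change between genotypes (KO minus WT, log2 scale, x axis) at P15 (orange) and P20 (red) for the 22 members above background on all 3 arrays of at least 1 group, with bars of 1 SE of the fit. Prss50 at P20 is the only filled point (adjusted p under 0.05), at -0.51, and Prss44, Prss43 and Prss39 stand farthest to the right at P20 with open points.

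Prss50 encodes a testis protease, also called TSP50, in which a threonine replaces the catalytic serine. It is the last of 6 members that follow each other on chromosome 9 in the order Prss42, Prss44, Prss43, Prss45, Prss46 and Prss50, between positions 110797248 and 110864629 of GRCm38.p6. Prss50 itself spans chr9:110857964-110864629. Topaz1 is on the same chromosome, at chr9:122747199-122802135, 11.9 Mb away. The 3 windows of 250 bases before an annotated transcript start of Prss45, Prss46 and Prss50 are shown because these neighbours took different courses between P15 and P20. They come from RefSeq on GRCm38.p6 and read 5′ to 3′ toward the gene, and capitals mark matches to the motifs described further on:
Prss45 (chr9:110834338-110834587, plus strand): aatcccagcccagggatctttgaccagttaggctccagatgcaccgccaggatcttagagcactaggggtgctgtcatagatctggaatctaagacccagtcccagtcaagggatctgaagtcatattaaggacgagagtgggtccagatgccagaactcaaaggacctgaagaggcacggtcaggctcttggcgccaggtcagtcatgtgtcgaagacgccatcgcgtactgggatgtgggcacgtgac
Prss46 (chr9:110844256-110844505, plus strand): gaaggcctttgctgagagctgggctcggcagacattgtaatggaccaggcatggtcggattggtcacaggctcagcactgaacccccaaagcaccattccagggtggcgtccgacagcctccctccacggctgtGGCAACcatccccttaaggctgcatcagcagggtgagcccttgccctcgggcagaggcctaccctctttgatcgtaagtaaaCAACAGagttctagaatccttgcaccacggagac
Prss50 (chr9:110857714-110857963, plus strand): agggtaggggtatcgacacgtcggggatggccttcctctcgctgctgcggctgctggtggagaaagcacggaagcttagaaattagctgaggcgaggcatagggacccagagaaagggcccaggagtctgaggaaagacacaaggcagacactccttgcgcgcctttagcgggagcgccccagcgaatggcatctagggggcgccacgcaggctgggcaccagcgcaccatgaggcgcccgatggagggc

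The window of Prss50 has 17 CpG dinucleotides and 63.6% G or C. Those of Prss45 and Prss46 have 9 and 8 CpGs, and the median over all 32851 windows of this length is 6, with quartiles of 2 and 16. Aligned with each other, the 3 windows share 48.8% to 51.6% of their bases, and no run longer than 8.

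The level of Prss50 was 11.08, 10.99 and 11.06 on the WT P15 arrays and 11.29, 11.07 and 11.16 on the KO P15 arrays. At P20 it was 11.03, 10.84 and 10.70 in WT and 10.30, 10.36 and 10.40 in KO. All 3 KO P20 arrays were thus below all 9 others, while the genotypes overlapped at P15. The change at P20 was -0.51 ± 0.08 (SE), with a 95% interval from -0.68 to -0.33 and a limma adjusted p of 0.0187. At P15 it was 0.13 ± 0.08, and the adjusted p was 0.768. The difference between these changes, -0.64 ± 0.11, had an adjusted p of 0.0984, so the genotype effect was not shown to differ between the ages. Between P15 and P20 Prss50 fell by 0.82 ± 0.08 in KO (1.76-fold, adjusted p = 3.7e-05), and the change in WT was -0.18 ± 0.08 (adjusted p = 0.152).

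The call for Prss50 at P20 was lost in 7 of the 27 alternatives, among them a fit of only the groups compared (adjusted p = 0.0532) and the fits without WT P20 replicate 2, KO P20 replicate 1 or KO P20 replicate 2 (0.0746, 0.0813 and 0.0629). Its size kept between -0.58 and -0.42.

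The other 5 genes of the chromosome 9 cluster rose between P15 and P20 in both genotypes. They belong to the testis-specific serine proteases known as TESSP, of which Prss42 and Prss43 carry lipid anchors. In the limma fit 13 of 50 members were higher at P20 than at P15 in WT (26%, against 8.28% of all probes) and 2 were lower (4%, against 11.8%). In KO 15 were higher (30%, against 10.1%) and 5 lower (10%, against 15.5%), where 25.6% of all probes passed in either direction. Members are counted by their brightest probe. Counted in the same way, 11.2% of the 19057 named genes were higher and 16.5% lower in WT. In KO these shares were 13.5% and 21.6%. The median change of the members with age was 0.03 in WT and 0.03 in KO, against -0.01 over all probes in either genotype. Every array at P20 lay above every array at P15 for 17 members in WT (34%, against 14% of probes) and for 16 in KO (32%, against 14%). The reverse held for 2 members in WT (4%, against 22.3%) and for 5 in KO (10%, against 21.3%).

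**Figure D2:**
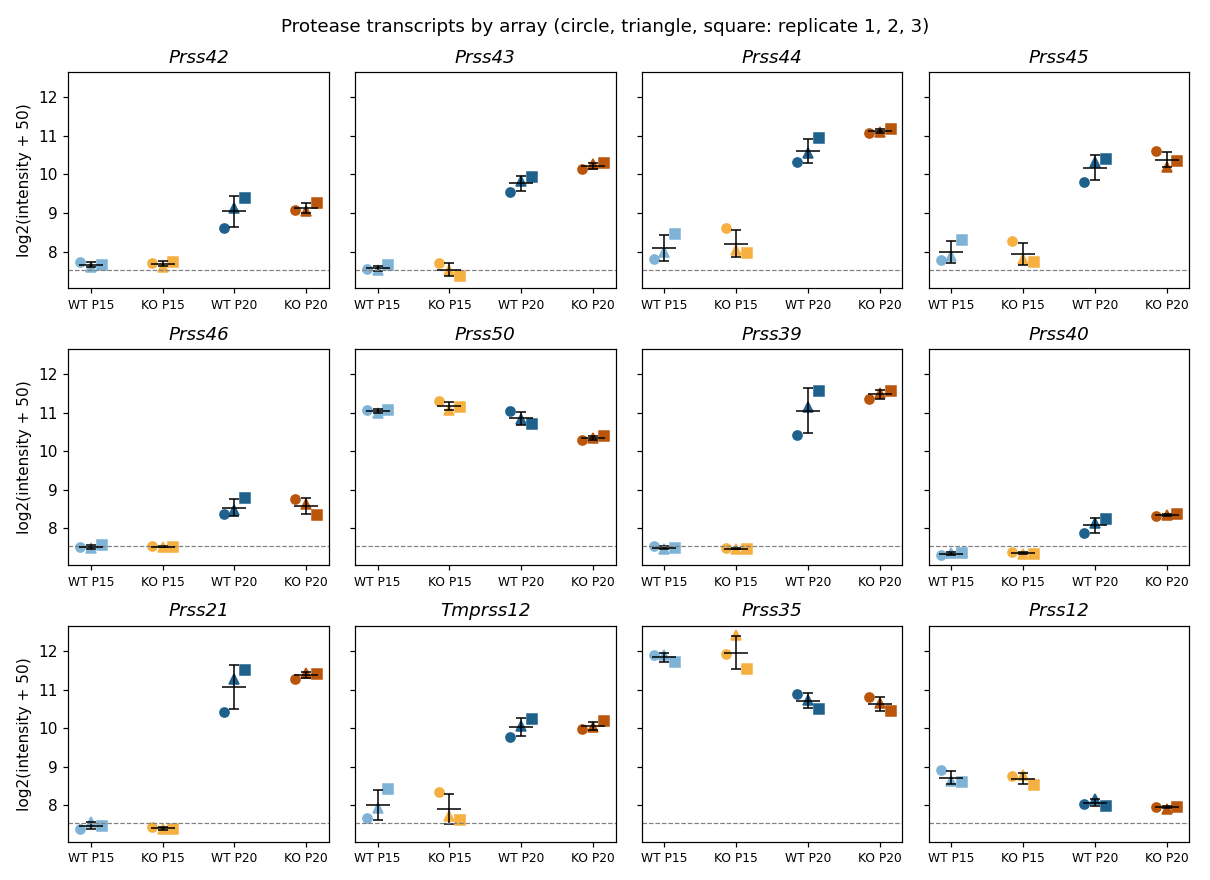
Level of 12 members on each array (y axis, log2(intensity + 50)) in WT P15, KO P15, WT P20 and KO P20, with circles, triangles and squares for replicates 1, 2 and 3, bars for the mean and SD of 3 arrays, and a dashed line at the background of 7.53. The P20 arrays stand apart from the P15 arrays for 9 rising genes and for the falling Prss35 and Prss12, and the KO P20 arrays of Prss50 lie below its 9 other arrays.

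Prss44 had levels of 7.81, 8.00 and 8.46 in WT P15 and of 10.33, 10.56 and 10.95 in WT P20. In KO they were 8.62, 8.04 and 7.97 at P15 and 11.08, 11.10 and 11.17 at P20. The ages did not overlap in either genotype, and at P20 the lowest KO array was above the highest WT array. Prss44 rose with age by 2.52 ± 0.21 in WT (5.75-fold, adjusted p = 2.19e-05) and by 2.91 ± 0.21 in KO (7.51-fold, adjusted p = 5.23e-06). The change between genotypes at P20, 0.50 ± 0.21, did not pass the test (limma adjusted p = 0.375). A second probe named for Prss44 was above background on 1 of 12 arrays and changed by 0.01 with age in WT.

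Prss43 had levels of 7.54, 7.52 and 7.64 in WT P15 and 9.55, 9.83 and 9.93 in WT P20. In KO the levels were 7.70, 7.52 and 7.36 at P15 and 10.14, 10.26 and 10.29 at P20. At P15 its values lay at the background, with 2 WT and 1 KO array above it, and at P20 the KO arrays again lay above all WT arrays. Its rise with age was 2.21 ± 0.10 in WT (4.61-fold, adjusted p = 5.22e-07) and 2.70 ± 0.10 in KO (6.51-fold, adjusted p = 8.31e-08, from a KO P15 group with 1 of 3 arrays above background). At P20 its change between genotypes was 0.46 ± 0.10 (1.37-fold), just outside the threshold at a limma adjusted p of 0.0711. It passed under 3 alternatives: 75th percentile scaling (0.0328), leaving out dim probes (0.0442) and array weights (0.0389). The difference between its genotype changes at P20 and P15, 0.50 ± 0.14, had an adjusted p of 0.404.

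Prss45 had levels of 7.79, 7.88 and 8.30 in WT P15, 8.27, 7.81 and 7.72 in KO P15, 9.80, 10.32 and 10.41 in WT P20 and 10.60, 10.20 and 10.35 in KO P20. It rose by 2.18 ± 0.20 in WT (4.54-fold, adjusted p = 4.4e-05) and by 2.45 ± 0.20 in KO (5.46-fold, adjusted p = 1.28e-05). The genotypes overlapped at both ages, and the change at P20 was 0.21 ± 0.20 (adjusted p = 0.786), or 0.02 without WT P20 replicate 1, 0.10 without KO P20 replicate 1 and 0.33 without WT P20 replicate 3.

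Prss42 rose from levels of 7.74, 7.59 and 7.66 in WT P15 to 8.60, 9.14 and 9.38 in WT P20, by 1.38 ± 0.16 (2.6-fold, adjusted p = 0.000175). In KO it rose from 7.70, 7.61 and 7.73 to 9.08, 9.04 and 9.27, by 1.45 ± 0.16 (adjusted p = 7.99e-05). Its KO P20 arrays lay within the range of the WT P20 arrays, and the change between genotypes was 0.09 ± 0.16 (adjusted p = 0.901).

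Prss46, the direct neighbour of Prss50, had levels of 7.51, 7.48 and 7.58 in WT P15, 7.54, 7.53 and 7.51 in KO P15, 8.37, 8.47 and 8.78 in WT P20 and 8.77, 8.63 and 8.36 in KO P20. It rose by 1.02 ± 0.11 in WT (2.02-fold, adjusted p = 0.00014) and by 1.06 ± 0.11 in KO (2.09-fold, adjusted p = 6.55e-05), with 1 array of each P15 group above background. At P20 the genotypes overlapped, with a change of 0.04 ± 0.11 (adjusted p = 0.935). Across the cluster, then, the change between genotypes at P20 ran from -0.51 for Prss50 to 0.50 for Prss44, and Prss50 alone passed the test. Whether probes of these related genes also bind each other's transcripts was not tested, as probe sequences were not used here.

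Prss39 and Prss40 encode trypsin-like proteases of the mouse acrosome and lie next to each other on chromosome 1, at chr1:34498412-34503062 and chr1:34536448-34561004. Their windows of 250 bases before a transcript start are shown. The Prss40 window reaches at its 3′ end, where its motif match lies, into the span of the gene, which ends at position 34561004. Only this pair and the pairs among Prss45, Prss46 and Prss50 were aligned, and this pair was the most alike of them. The share of identical bases in unrelated windows was not measured. The aligned windows share 149 of 250 bases (59.6%), with a longest common run of 19. Each holds 1 match to the MYB motif, in capitals, close to its 3′ end:
Prss39 (chr1:34498162-34498411, plus strand): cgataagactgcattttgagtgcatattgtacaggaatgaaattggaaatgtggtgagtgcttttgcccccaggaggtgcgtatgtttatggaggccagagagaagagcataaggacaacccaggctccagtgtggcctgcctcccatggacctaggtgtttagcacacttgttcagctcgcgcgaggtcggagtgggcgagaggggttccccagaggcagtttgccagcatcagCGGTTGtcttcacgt
Prss40 (chr1:34560944-34561193, minus strand): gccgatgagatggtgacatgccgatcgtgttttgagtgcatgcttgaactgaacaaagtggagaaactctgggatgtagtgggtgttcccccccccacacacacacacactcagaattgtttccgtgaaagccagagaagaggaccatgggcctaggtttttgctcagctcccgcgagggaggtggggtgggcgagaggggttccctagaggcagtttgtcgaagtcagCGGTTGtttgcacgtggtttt

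Prss39 was at background at P15, with levels of 7.54, 7.47 and 7.50 in WT and 7.49, 7.47 and 7.47 in KO. At P20 the levels were 10.42, 11.16 and 11.57 in WT and 11.35, 11.52 and 11.55 in KO. All P20 arrays stood far above all P15 arrays, and WT P20 replicate 1 was the lowest of the 6 P20 arrays. The rise in WT was 3.54 ± 0.22 (11.7-fold, adjusted p = 2.99e-06), from a group with 1 of 3 arrays above background. In KO, where no P15 array was above background, the means were 7.48 and 11.47 and the rise was at least 15.4-fold (adjusted p = 7.35e-07). Such lower bounds set the level at P20 against the background of 7.53. Between genotypes at P20 the change was 0.43 ± 0.22 (adjusted p = 0.497), and it was 0.11 without WT P20 replicate 1 and 0.69 without WT P20 replicate 3 (adjusted p = 0.104).

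Prss40 was not above background on any P15 array, with levels of 7.31 to 7.37 in WT and 7.34 to 7.39 in KO. At P20 it reached 7.87, 8.15 and 8.24 in WT and 8.32, 8.34 and 8.37 in KO, all above background and with every KO array above every WT array. From P15 to P20 it rose at least 1.47-fold in WT (means 7.35 and 8.09, adjusted p = 8.79e-05) and at least 1.75-fold in KO (means 7.36 and 8.34, adjusted p = 8.18e-06). The genotype change at P20 was 0.26 ± 0.08 (1.2-fold) with a limma adjusted p of 0.174, and without WT P20 replicate 1 it was 0.15.

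Prss21 encodes testisin, a lipid-anchored protease of the surface of germ cells and sperm, and lies at chr17:23867883-23873121. Its levels were 7.38, 7.57 and 7.45 in WT P15 and 7.44, 7.40 and 7.37 in KO P15, of which 1 WT array was above background. At P20 they were 10.41, 11.26 and 11.50 in WT and 11.28, 11.44 and 11.41 in KO. The ages were far apart and the genotypes overlapped, again with WT P20 replicate 1 as the lowest P20 array. Prss21 rose 12-fold in WT (3.59 ± 0.21, adjusted p = 2.58e-06) and at least 14.3-fold in KO (means 7.40 and 11.37, adjusted p = 7.28e-07). The change between genotypes at P20, 0.32 ± 0.21, did not pass (adjusted p = 0.654) and was -0.01 without WT P20 replicate 1 and 0.54 without WT P20 replicate 3.

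Tmprss12, a membrane-anchored protease that mouse sperm need for fertility, had levels of 7.66, 7.94 and 8.42 in WT P15 and 8.34, 7.73 and 7.61 in KO P15. At P20 the levels were 9.78, 10.05 and 10.23 in WT and 9.97, 10.03 and 10.18 in KO. It rose by 2.02 ± 0.22 in WT (4.04-fold, adjusted p = 0.000122) and by 2.16 ± 0.22 in KO (4.48-fold, adjusted p = 4.85e-05). The KO P20 arrays fell inside the WT range, with a change of 0.03 ± 0.22 between genotypes (95% interval -0.45 to 0.52, adjusted p = 0.979). Its other probe was above background on 4 of 12 arrays and moved by 0.01 with age in WT.

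**Figure D3:**
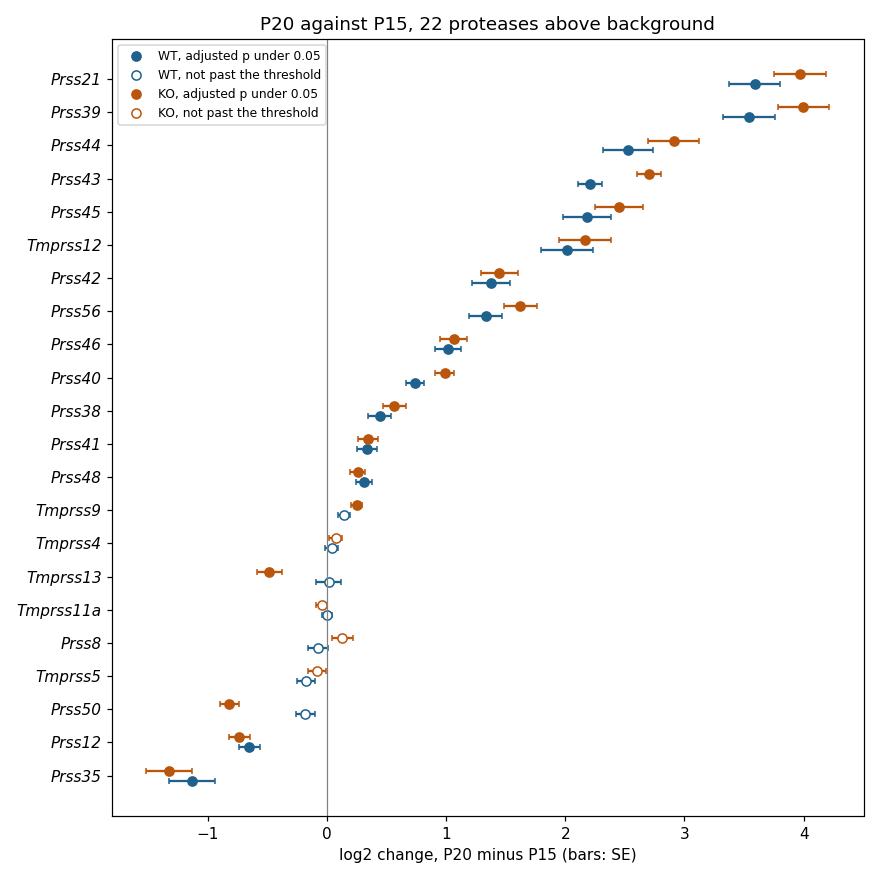
Change with age (P20 minus P15, log2 scale, x axis) in WT (blue) and KO (orange-brown) for the 22 members above background on all 3 arrays of at least 1 group, with bars of 1 SE and filled points where the limma adjusted p was under 0.05. Prss21 and Prss39 lie at 3.59 and 3.54 in WT, Prss35 at -1.13, and Prss50, Tmprss13 and Tmprss9 are filled in KO and open in WT.

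Rises with age were also called for 4 further members in both genotypes. Prss56, a protease known for its role in the growth of the eye, had levels of 7.46, 7.82 and 7.44 in WT P15 and 8.74, 8.90 and 9.09 in WT P20. It rose by 1.33 ± 0.14 in WT (2.52-fold, adjusted p = 8.71e-05, 1 of 3 P15 arrays above background). In KO it rose at least 2.92-fold (means 7.46 and 9.08, adjusted p = 1.48e-05). Prss38 rose by 0.44 ± 0.10 in WT (adjusted p = 0.00807) and by 0.57 ± 0.10 in KO (adjusted p = 0.0014). Prss48 rose by 0.31 ± 0.07 in WT (adjusted p = 0.00698) and by 0.26 ± 0.07 in KO (adjusted p = 0.0146, lost without KO P20 replicate 2 at 0.0528). It started near background, with 2 of 3 arrays of each P15 group above it. The means were 7.57 in WT P15, 7.59 in KO P15, 7.88 in WT P20 and 7.85 in KO P20. Without KO P20 replicates 1 and 3 the KO calls of Prss38 and Prss48 were lost (adjusted p = 0.0552 and 0.102).

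Prss41, another TESSP gene with a lipid anchor, was above background on all 12 arrays. Its levels were 8.42, 8.35 and 8.52 in WT P15, 8.37, 8.60 and 8.36 in KO P15, 8.76, 8.82 and 8.72 in WT P20 and 8.92, 8.80 and 8.64 in KO P20. The ages did not overlap and the genotypes did. The rise was 0.34 ± 0.08 in WT (adjusted p = 0.017) and 0.35 ± 0.08 in KO (adjusted p = 0.011). The WT call ended without WT P15 replicate 1, WT P15 replicate 2 or WT P20 replicate 2 (adjusted p = 0.0542, 0.0715 and 0.0639). The KO call ended in the fit of only the groups compared (0.0565) and without KO P20 replicates 1 and 3 (0.0549). Prss41 and Prss21 lie on chromosome 17 with Prss32 between them, and Prss32 never reached background on all 3 arrays of a group.

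Tmprss9, a protease with several catalytic units in 1 chain, was below background at P15 and above it on all P20 arrays. It passed in KO (at least 1.1-fold, means 7.43 and 7.68, adjusted p = 0.00309) and not in WT (means 7.43 and 7.58, adjusted p = 0.065). Tmprss7 passed in KO with a change of 0.11 ± 0.04 (adjusted p = 0.049) although 2 of 3 KO P20 arrays were above background and no KO P15 array was. Prss53 passed in KO in the other direction, at -0.11 ± 0.03 (adjusted p = 0.0387), without being above background on any array. The calls of Tmprss7 and Prss53 were lost in 19 and 13 of the alternatives.

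The members that fell with age were Prss35 and Prss12, in both genotypes. Prss35, whose product is classed as a protease without catalytic activity, had levels of 11.91, 11.90 and 11.70 in WT P15 and 10.88, 10.73 and 10.50 in WT P20. In KO the levels were 11.93, 12.40 and 11.54 at P15 and 10.81, 10.65 and 10.44 at P20. The ages were apart in both genotypes, and KO P15 spread more widely (SD 0.43) than the other groups (SD 0.11 to 0.19). Prss35 fell by 1.13 ± 0.19 in WT (2.19-fold, adjusted p = 0.00194) and by 1.32 ± 0.19 in KO (2.5-fold, adjusted p = 0.000474). The Sertoli cell list fell over the same interval, from sums of 99298 to 108468 in WT P15 to 81198 to 85518 in WT P20, with 6 of 10 genes lower and 0 higher by the test. The spermatogonial list summed to 11004 to 14071 in WT P15 and to 6484 to 7270 in WT P20, with 4 of 10 lower and 1 higher. Of all probes 11.8% were lower and 8.28% higher with age in WT. The part of Sertoli cells and spermatogonia in the fall of Prss35 was not tested.

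Prss12 encodes neurotrypsin, which cuts agrin at synapses. Its levels were 8.90, 8.64 and 8.60 in WT P15, 8.76, 8.77 and 8.52 in KO P15, 8.04, 8.17 and 7.98 in WT P20 and 7.97, 7.91 and 7.96 in KO P20. It fell by 0.65 ± 0.09 in WT (1.57-fold, adjusted p = 0.000544) and by 0.74 ± 0.09 in KO (1.67-fold, adjusted p = 0.000157), and its second probe fell by 0.51 and 0.54. At P20 the KO arrays were all below the WT arrays, by a mean of 0.12 ± 0.09 (adjusted p = 0.701).

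Tmprss13, a membrane-anchored protease of epithelia, had the lowest unadjusted p of the family between genotypes at P15, 0.0233 in the limma fit. Its levels there were 8.21, 7.95 and 8.00 in WT and 8.11, 8.31 and 8.59 in KO, and at P20 they were 8.02, 8.09 and 8.09 in WT and 7.79, 7.92 and 7.85 in KO. The genotypes overlapped at P15, and at P20 all KO arrays were below all WT arrays. The changes were 0.28 ± 0.11 at P15 (limma adjusted p = 0.596) and -0.22 ± 0.11 at P20 (adjusted p = 0.476), and their difference, -0.50 ± 0.15, had an adjusted p of 0.436. The change at P15 was 0.16 without KO P15 replicate 3. Tmprss13 fell with age in KO by 0.48 ± 0.11 (adjusted p = 0.00635), and its second probe fell there by 0.56. That call was lost without KO P20 replicates 1 and 3 (-0.42, adjusted p = 0.142). The change in WT was 0.01 ± 0.11 (adjusted p = 0.958).

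Counting arrays without a test, 3 members had all KO arrays above all WT arrays at P20 (6%, against 8.72% of probes), namely Prss44, Prss43 and Prss40. All KO arrays were below all WT arrays for 5 members (10%, against 9.26% of probes), namely Prss50, Prss12, Tmprss13, Tmprss11c and Prss29. At P15 this held for 0 members upward (against 5.7% of probes) and for Prss16 downward (2%, against 5.55%). These shares were near or below those of all probes. The KO P20 levels of Tmprss11c were below background on all 3 arrays, and Prss29 was at background on all 12.

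Prss8 encodes prostasin, a lipid-anchored protease of epithelia that acts on sodium channels. Its levels at P20 were 7.56, 7.57 and 7.50 in WT and 7.87, 7.55 and 7.86 in KO, so that KO replicates 1 and 3 were high and replicate 2 was within the WT range. The change of 0.22 ± 0.09 did not pass (limma adjusted p = 0.342) and was 0.01 without replicates 1 and 3. A second probe of Prss8 changed by 0.02. The same 2 arrays had the highest summed intensity of 9 epididymis genes, 3006 and 3589, against 1126 in KO P20 replicate 2 and 1102 to 1372 in WT P20. On them 2 and 3 of the 9 genes were above background, against 0 in KO P20 replicate 2 and 3 in WT P20 replicate 3. The median levels of the list were 7.47 and 7.46, against 7.45 on each of those arrays. Whether the 2 KO P20 arrays held epididymal material, or whether it bore on the Prss8 level, was not tested. Leaving out both arrays also ended the call for Prss50 (adjusted p = 0.235), whose change stayed at -0.50 with 1 KO P20 array left.

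The P15 arrays of a group were not alike in the rising genes. The 12 spermatocyte genes summed to 27345 in WT P15 replicate 3 and to 24460 in KO P15 replicate 1, and to 9509 to 14351 on the other 4 P15 arrays. These 2 arrays were also the highest of their groups for Prss44, Prss45 and Tmprss12, and they held the highest P15 levels of Prss43 and Prss38. Each P15 group held 1 such array. The genotype changes at P15 were small (0.12 ± 0.21 for Prss44, -0.06 ± 0.20 for Prss45 and -0.11 ± 0.22 for Tmprss12) beside SDs of 0.28 to 0.39. Without these 2 arrays, 0 members passed at P15. At P20 WT replicate 1 was the lowest array for the 14 round spermatid genes (7452, against 10689 and 11534 in WT) and for the spermatocyte genes, and it was the lowest P20 array for Prss39, Prss21, Prss44, Prss43, Prss45, Prss42, Prss40 and Tmprss12.

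**Figure D4:**
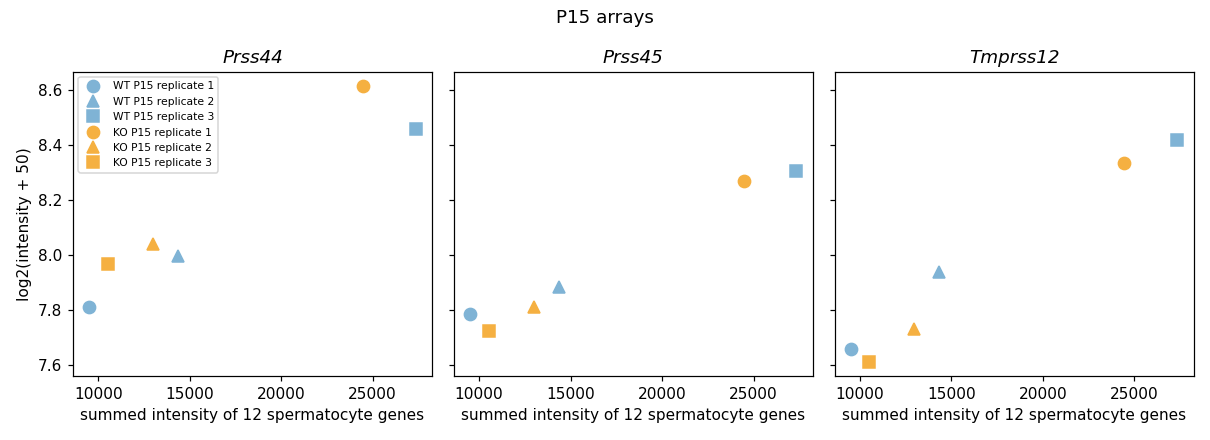
Level of Prss44, Prss45 and Tmprss12 (y axis, log2(intensity + 50)) on the 6 P15 arrays against the summed intensity of 12 spermatocyte genes on the same array (x axis), with WT in blue, KO in orange and a symbol per replicate. WT replicate 3 (27345) and KO replicate 1 (24460) lie apart at the upper right in all 3 panels.

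The remaining members gave little or no signal. Tmprss5, also called spinesin, was above background on all 12 arrays, with levels of 7.58 to 7.89, and passed in no comparison. Tmprss4 and Tmprss11a were above background on all 3 arrays of at least 1 group, at levels of 7.47 to 7.71, and passed in none. The other 28 members never reached background on all 3 arrays of a group, and their levels ran from 7.27 to 7.65. They include Prss2 and Prss3 (pancreatic trypsinogens), Tmprss15 (enteropeptidase, which activates them), Tmprss6 (an inhibitor of hepcidin expression in the liver), Tmprss2, Tmprss3, Prss16, Prss23, Prss27, Prss28, Prss32, Tmprss7 and the airway-type Tmprss11b and Tmprss11c. Of the 28, 14 were at background on all 12 arrays: Prss22, Prss29, Prss30, Prss34, Prss37, Prss52, Prss53, Prss54, Prss55, Prss58, Tmprss11d, Tmprss11e, Tmprss11f and Tmprss11g. Prss37 and Prss55, which mouse sperm need, are thus among the members with no level above background at either age, and for such members a change could not be measured at this signal.

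Related genes outside the family were read from lists of their own. For 66 measured proteases of the trypsin fold with other names, the median change between genotypes at P20 was 0.01. Among them 0 were higher and 1 was lower in KO at P20, against 0.731% and 0.311% of all probes. That gene was Plat, tissue plasminogen activator, with levels of 9.75, 9.60 and 9.66 in WT P20 and 9.21, 9.26 and 9.30 in KO P20. Its genotypes did not overlap, and the change was -0.41 ± 0.08 (limma adjusted p = 0.0399). With age in WT 5 of the 66 rose and 6 fell, where 8.28% of all probes rose and 11.8% fell. In KO 7 rose and 7 fell, where 10.1% and 15.5% of all probes did. Acr, the acrosomal protease acrosin, rose by 2.85 ± 0.21 in WT (adjusted p = 8.08e-06) and by 3.05 ± 0.21 in KO, and Klk1b21, a glandular kallikrein, by 1.24 ± 0.18 and 0.98 ± 0.18. Masp1, of the complement lectin pathway, fell by 1.20 ± 0.12 in WT (adjusted p = 6.2e-05) and passed in the same direction in KO (adjusted p = 4.5e-06).

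Of 35 measured genes listed as inhibitors of serine proteases or relatives of them, limma called 0 between genotypes at P20, against 1.04% of all probes. The median change was 0.03. Of the 35, 5 had an unadjusted p under 0.05, against 5412 of the 45281 probes. With age 2 of 35 rose and 6 fell in WT, against 8.28% and 11.8% of all probes, and 4 rose and 7 fell in KO, against 10.1% and 15.5%. Spink2, the inhibitor that holds acrosomal proteases in check, had levels of 7.56, 7.78 and 8.47 in WT P15 and 12.17, 12.25 and 12.57 in WT P20. It rose by 4.40 ± 0.27 in WT (adjusted p = 2.67e-06) and by 4.78 ± 0.27 in KO (adjusted p = 8.38e-07). Serpinh1, a collagen chaperone, fell by 0.93 ± 0.17 in WT and by 1.27 ± 0.17 in KO.

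The sperm proteases Prss37, Prss55 and Tmprss12 are known in mice for their link to ADAM3, a sperm surface protein, and to the genes that mature it. Of 14 measured genes of that pathway limma called 0 between genotypes at P20, against 1.04% of all probes, with a median change of 0.05. Among them 3 had an unadjusted p under 0.05, against 5412 of the 45281 probes. The nearest was Cmtm2a, at 0.48 ± 0.10 (adjusted p = 0.0519). With age 4 of 14 rose and 2 fell in each genotype. Of all probes 8.28% rose and 11.8% fell in WT, and 10.1% rose and 15.5% fell in KO. Adam3 itself had levels of 7.42, 7.47 and 7.66 in WT P15 and 11.91, 12.35 and 12.54 in WT P20, and it rose by 4.75 ± 0.14 (adjusted p = 3.72e-08). In KO it rose by 5.29 ± 0.14 (adjusted p = 1.27e-08), and its change between genotypes at P20 was 0.53 ± 0.14 (adjusted p = 0.125). Clgn, a chaperone of this pathway, rose by 2.60 ± 0.49 in WT and by 2.86 ± 0.49 in KO.

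Windows of 250 bases before a transcript start were in the RefSeq table for 37 of the 50 members, and for 10 of the 13 that rose with age in WT. They were searched on both strands for 4 motifs: CAACNG for MYB, TGACG for a cyclic AMP response element (CRE) in its short form, TGACGTCA for the full CRE, which contains the short form, and GTTGCC for the short form of the RFX site. MYBL1, RFX2 and CREM are known to act in meiotic and spermatid transcription in the mouse. The MYB motif was in 6 of the 10 risers and in 11 of the 27 other members, and 32.3% of all 27025 genes with a window hold it. A gene counts here if any of its windows has a match, and of single windows 29.3% do. The short RFX form was in 2 of 10 and in 0 of 27 (11.8% of all genes, 10.4% of single windows). The short CRE was in 2 of 10 and in 7 of 27 (19.8% of all genes, 17.8% of single windows), and the full CRE in 0 of both (1.77% of all genes, 1.55% of single windows). The RFX form was found in Prss46 and in Prss21, whose window holds 2 matches to it and 3 to MYB:
Prss21 (chr17:23867822-23868071, plus strand): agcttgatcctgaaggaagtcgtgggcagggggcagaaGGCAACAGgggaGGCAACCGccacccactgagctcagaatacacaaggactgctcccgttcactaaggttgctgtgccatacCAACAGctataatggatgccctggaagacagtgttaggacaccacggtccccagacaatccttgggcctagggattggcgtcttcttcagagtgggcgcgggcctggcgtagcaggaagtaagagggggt
In the window of Prss21 each RFX match overlaps a MYB match, and 1 MYB match stands alone. This window reaches into the span of the gene, which begins at position 23867883. The windows of Prss45 and Prss50 hold no match to any of the 4. A match is a description of these letters and does not show that a factor binds there.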

How the data were processed

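Whole testis RNA was labelled with biotin and hybridised to Illumina bead arrays, per the labels' protocols, and read with BeadStudio, per the submitters' processing notes. The non-normalized intensity values deposited by the authors were quantile-normalized over all 12 arrays, 50 was added and log2 was taken. The authors' processed values, also linear intensity values, lay close to these (median log2 difference 4.79e-05, largest 0.00833). No background was subtracted, which compresses fold changes. Each array's background was set at the mode of its normalized log2 values plus 1.645 SD of those below it. Detection p-values and slide positions were not used here.

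The model, with 4 group means, was fitted to 45281 probes in limma 3.58.1 under R 4.3.3 (8 residual degrees of freedom, 2.14 prior), with Benjamini-Hochberg adjustment over all probes in each of 5 comparisons: genotype at P15 and at P20, their difference, and age in WT and in KO. The fit was tested on simulated data with independent noise per probe and changes added to bright probes only. Such data do not cover members near background or shifts shared by the genes of an array. Probe names came from the array's annotation (34885 probes with 1 symbol, 18 with several, 10378 not listed), and gene positions and promoters from RefSeq on GRCm38.p6. Members past the threshold in any comparison, or above background on all 3 arrays of a group, are described with values, and of each list up to 4 members past the threshold. The members and lists were chosen with earlier results of these data known. Alternatives covered normalization, background correction, offset, dim probes, variance model, array weights, leaving out arrays, a replicate block and averaging the probes of a gene. Precision is limited by having 3 arrays in a group.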

Additional observations from a re-analysis of the deposited data

How the results depend on the processing

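The number of members past the threshold at P20 between genotypes, 1 in the reported fit, was 2 with 75th percentile scaling, with dim probes left out and with array weights, each time Prss50 and Prss43. It was 0 with normexp and an offset of 16 (Prss50 at an adjusted p of 0.118), with an intensity trend (0.0837), in a fit of only the groups compared (0.0532), with a fold of at least 2 and without KO P20 replicates 1 and 3, and 0 to 1 when 1 array was left out. The count with age was 14 to 16 in WT and 18 to 19 in KO with 1 array left out, and a fold of at least 2 left 10 in KO. Between genotypes at P15, and for the difference of the genotype effects, it was 0 under each alternative run. The sign turned for 2 values that had not passed: Prss21 at P20 was -0.008051 without WT P20 replicate 1 and at most 0.5383 with another array left out, and the difference for Prss8 was -0.00036 without KO P20 replicates 1 and 3. The causes were not tested. Under 75th percentile scaling the median change of all probes was 0.11 at P15 and 0.05 at P20, and changes under it are read relative to these shifts. Samples of the same replicate number did not deviate together (correlations of -0.345 to 0.188). With the number as a replicate block the counts of members were 1 at P20, 0 at P15, 0 for the difference, 15 with age in WT and 18 in KO. The sets without KO P20 replicates 1 and 3, and without WT P15 replicate 3 and KO P15 replicate 1, were chosen after seeing the data, and in the first the 1 remaining KO P20 array takes its spread from the other groups. Values near the background of 7.53 limit what can be said of 28 members.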

Other observations

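Epididymal protease inhibitors were high on the same KO P20 arrays as Prss8. Spink10 had levels (log2(intensity + 50)) of 8.96, 7.46 and 9.23 on the 3 KO P20 arrays and of 7.49, 7.35 and 7.58 on the WT P20 arrays, and Spink11 had 8.47, 7.52 and 8.37 against 7.51, 7.54 and 7.75. KO P20 replicate 2 was within the WT range for both. Neither passed the test between genotypes (changes of 1.07 ± 0.35 and 0.52 ± 0.20, limma adjusted p = 0.218 and 0.312). Both passed with age in KO (1.15 and 0.64, adjusted p = 0.0343 for each). Of 7 measured adipocyte genes 3 were higher in KO P20 by the test (Adipoq, Lpl and Cyp2e1), against 0.731% of all probes. The list summed to 2490 to 2611 in KO P20 and to 1170 to 1482 in WT P20. No member of the protease family was higher by the test at that age.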
